A study of Mus musculus with 6 samples.

Results

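Paraspeckles are ribonucleoprotein bodies of the cell nucleus that assemble on the long noncoding RNA Neat1. The genes described here are Neat1, its chromosomal neighbour Malat1 and 7 genes for paraspeckle proteins, namely Sfpq, Nono, Pspc1, Rbm14, Cpsf6, Tardbp and Hnrnpk. They were taken by symbol from a table of 36333 genes, and all 9 symbols were found. Pancreas RNA was sequenced from wild-type (WT) mice, with 3 libraries after intraperitoneal cerulein and 3 after intraperitoneal saline. Cerulein, an analogue of cholecystokinin that overstimulates acinar cells and sets off acute pancreatitis, was given in 10 injections of 200 µl, dosed at 200 µg/kg/h, and the pancreas was collected once they were finished. No source used here gives the strain, age or sex of the mice or says whether each library came from 1 animal, so p-values measure only the spread between these samples, which may be technical. The study asked which lncRNAs and mRNAs change at the start of the disease.

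Neat1 is made in a short polyadenylated form and a long form that share their start. The long form carries the paraspeckle, and its last bases fold into a triple helix in place of a poly(A) tail. Malat1, an RNA of nuclear speckles, ends in a similar triple helix, left when RNase P cuts off a tRNA-like tail called mascRNA. Sfpq, Nono and Pspc1 encode the DBHS family, RNA-binding proteins that pair with each other and coat Neat1, and Rbm14 encodes a further protein needed for assembly. Cpsf6, a subunit of cleavage factor I, is known from human cells to favour the short form of Neat1, and Hnrnpk to favour the long one. Tardbp encodes TDP-43, which binds UG-rich RNA, including Neat1. Neat1 is known as a stress-responsive RNA in many cell types.

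The ends of these RNAs bear on what poly(A)-selected libraries, such as these, can count. The 5 stretches below are from GENCODE M21 transcripts on GRCm38, all on the minus strand of chromosome 19 and printed as DNA from 5′ to 3′. In the first pair, capitals mark the U-rich motifs TTTCTTTT and TTTGCTTTT and the A-rich motif AAAAAGCAAAA of the triple helix. In the next pair, capitals mark the polyadenylation signal AATAAA. In the last, capitals mark the longest TG run of the long Neat1 form, a UG repeat in the RNA.
Malat1 triple helix (chr19:5795977-5796090): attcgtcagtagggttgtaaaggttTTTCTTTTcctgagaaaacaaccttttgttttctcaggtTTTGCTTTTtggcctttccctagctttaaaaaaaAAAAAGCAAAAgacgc
Neat1 long form, end (chr19:5824708-5824822): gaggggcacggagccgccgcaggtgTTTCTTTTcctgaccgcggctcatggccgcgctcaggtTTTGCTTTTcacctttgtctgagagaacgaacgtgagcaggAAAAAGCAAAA
Neat1 short form, end (chr19:5842307-5842376): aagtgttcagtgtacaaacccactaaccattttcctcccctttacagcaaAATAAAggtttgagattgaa
Malat1 annotated end (chr19:5795690-5795759): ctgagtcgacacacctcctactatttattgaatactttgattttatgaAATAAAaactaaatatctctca
Neat1 long form, TG run (chr19:5826007-5826070): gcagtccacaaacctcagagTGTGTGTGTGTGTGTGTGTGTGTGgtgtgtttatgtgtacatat

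The 3 triple helix motifs were searched in this order within 150 bases on the transcript strand, and 2 of 141767 GENCODE transcripts held them (0.00141%), the full-length Malat1 and Neat1 transcripts from which they were chosen. The Neat1 transcript stops at the A-rich motif. The Malat1 transcript runs on for 292 bases, and the last 5 bases printed are the first of mascRNA as RefSeq places it. The signal AATAAA stands in the last 70 bases of the short Neat1 form and of Malat1, as it does in 27.5% of all transcripts. The short form of Neat1 is 3004 bases long and the long form 20771. The TG run spans 24 bases, begins 19429 bases from the Neat1 start and so lies outside the short form. A run at least as long occurs in 8.42% of the 7040 transcripts of at least 5000 bases, and the longest run in Malat1 has 6 bases. The deposited counts are per gene and do not separate the forms.

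Total counts lay between 6307887 and 7610775 in cerulein libraries and between 5335117 and 7194125 in saline libraries. Values below are CPM, raw counts relative to library sizes scaled by TMM, a method that corrects for shifts in the make-up of a library. Changes are log2 fold changes of cerulein over saline from edgeR's quasi-likelihood test, with p-values adjusted by the Benjamini-Hochberg method over 12441 tested genes and called under 0.05. Of these, 28.7% were called higher and 27.1% lower. The share of calls that were higher was 51.4%, against 40.9% with upper-quartile scaling and 78.1% with library size alone. Over all genes, the median change shifted by -0.20 under upper-quartile scaling and by 0.56 under library size alone (log2). The summed acinar markers stood at 171100 to 212500 CPM in cerulein libraries. They stood at 303800 CPM in saline replicate 1 and at 562200 and 571300 CPM in saline replicates 2 and 3. Of the 9 acinar genes, 8 were called lower and none was at 0. Duct markers summed to 880 to 1109 CPM in cerulein and 137 to 171 CPM in saline, with 5 of 6 higher and 1 lower. Monocyte and macrophage markers summed to 483 to 553 CPM in cerulein and 153 to 317 CPM in saline, with 4 of 7 higher. Neutrophil markers summed to 43.1 to 109.6 CPM in cerulein libraries, and to 203 CPM in saline replicate 1 and 16.4 and 38.0 CPM in the other saline libraries, with 0 of 5 tested called at an adjusted p. Of lymphocyte markers 1 of 6 tested was higher, of endothelial markers 2 of 5 were lower, of stellate and fibroblast markers 2 of 5 were higher and 1 lower, and of islet markers 1 of 5 was lower. Islet markers summed to 1004 to 1667 CPM in cerulein libraries, to 797 CPM in saline replicate 1 and to 1900 and 1891 CPM in saline replicates 2 and 3. The part of these shifts in the results below was not tested, and in bulk tissue fewer cells of a type and less RNA per cell cannot be told apart.

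Neat1, Tardbp and Sfpq rose after cerulein, by 4.45-fold, 3.08-fold and 1.64-fold. Malat1, Nono, Pspc1, Cpsf6 and Hnrnpk did not pass the threshold, and Rbm14 was not measured. The 8 measured genes all passed the filter on low counts. The 3 of 8 called higher compare with 28.7% of all tested genes, which is a similar share. None of the 8 was called lower by edgeR, limma-voom or DESeq2, against 27.1% of all genes in edgeR. At an unadjusted p under 0.05, 1 gene (Nono) was lower in edgeR. The groups did not overlap for 4 of the 8, against 63.0% of tested genes. The median log2 fold change was 0.32 for the 8 and 0.00 for all tested genes.

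**Figure D1:**
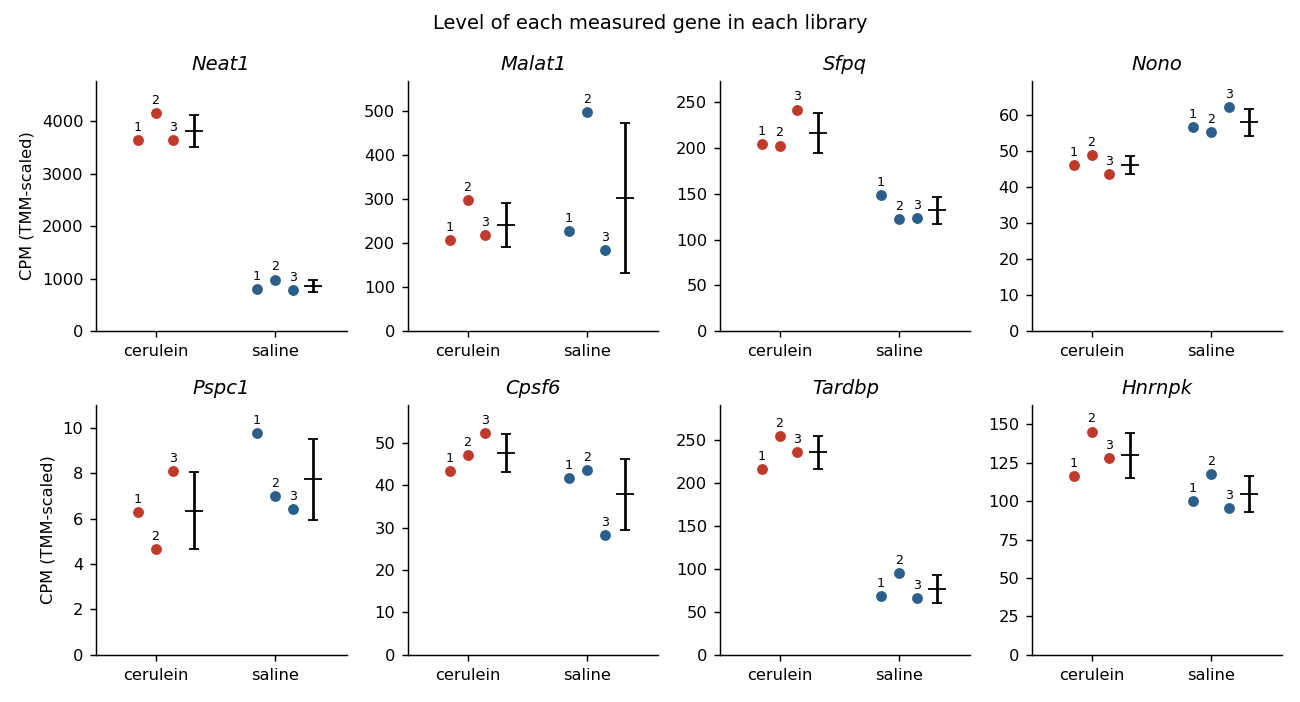
CPM of the 8 measured genes in each library, with TMM scaling and every axis starting at 0; numbers beside the points are replicate numbers, and black bars are the mean ± SD of 3 libraries. Neat1, Tardbp and Sfpq lie higher in every cerulein library than in any saline library, Nono lies lower, and saline replicate 2 stands apart for Malat1 at 498 CPM.

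Neat1 lies on chromosome 19 from 5824708 to 5845480 (RefSeq, GRCm38.p6, the assembly behind mm10), where it is annotated as a lncRNA. It had 3634, 4160 and 3647 CPM in cerulein replicates 1, 2 and 3, against 795, 984 and 790 CPM in saline replicates 1, 2 and 3. Every cerulein library stood well above every saline library, and the spread within each group was small beside the gap. Neat1 averaged 3814 ± 299.9 CPM in cerulein and 856 ± 111 CPM in saline (SD, n = 3 each), a log2 fold change of 2.16 ± 0.22 (SE, adjusted p = 2.83e-06, edgeR). The raw counts behind these values were 30703, 35553 and 28882 in cerulein and 5868, 4369 and 3072 in saline, so counting error is small.

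Neat1 took 0.472%, 0.467% and 0.458% of all counted reads in cerulein libraries, against 0.0816%, 0.0706% and 0.0576% in saline libraries. By mean CPM it ranked 23rd among all genes in cerulein and 58th in saline. Among 10013 genes with a RefSeq lncRNA class matched by symbol, it ranked 2nd by mean CPM in both groups. Neat1 took 19.9%, 19.1% and 21.0% of all lncRNA reads in cerulein libraries, against 6.83%, 6.04% and 7.82% in saline libraries. These ranks and shares of reads were not corrected for length, and Neat1 has 20771 bases of annotated exons against 6983 for Malat1. The rise was not the steepest of its class. Of 375 tested lncRNA genes, 44 had a larger log2 fold change, and 93 were called higher, beside 28.7% of all tested genes. Over all tested genes, 94.5% had a log2 fold change at or below that of Neat1.

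Malat1 lies 22035 bases from Neat1 on the same strand, at chromosome 19, 5795690 to 5802672. It had 206, 298 and 219 CPM in cerulein replicates 1, 2 and 3, against 228, 498 and 183 CPM in saline replicates 1, 2 and 3. The groups overlapped, and saline replicate 2 held the highest value of all and saline replicate 3 the lowest. The log2 fold change was -0.33 ± 0.36 (SE, adjusted p = 0.464, edgeR), with a 95% interval from -1.14 to 0.48. Without saline replicate 2 it was 0.23 and with library size alone 0.28, so the sign is not settled by these data.

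The count ratio of Neat1 to Malat1 within a library does not depend on how libraries are scaled. It was 17.6, 13.9 and 16.7 in cerulein replicates 1, 2 and 3, against 3.49, 1.98 and 4.31 in saline replicates 1, 2 and 3. The ratio was higher in each cerulein library than in any saline library. On the log2 scale it averaged 4.001 ± 0.178 in cerulein and 1.63 ± 0.58 in saline (SD, n = 3 each), a difference of 2.37 (p = 0.1 in a two-sided exact permutation test, the least that 3 against 3 libraries can give).

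Sfpq encodes the largest DBHS protein, which also takes part in splicing and transcription. It lies on chromosome 4, 127020716 to 127051101. It had 205, 203 and 242 CPM in cerulein replicates 1, 2 and 3, against 149, 123 and 124 CPM in saline replicates 1, 2 and 3. The groups did not overlap, and the rise was 0.71 ± 0.17 on the log2 scale (SE, adjusted p = 0.00253, edgeR). Its annotated span partly overlaps Zmym1, which had 47 to 62 counts in cerulein and 15 to 35 in saline libraries, so reads from the shared stretch may be missing.

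Nono encodes another DBHS protein and lies on chromosome X, 101429560 to 101448593. It had 46.2, 48.8 and 43.7 CPM in cerulein replicates 1, 2 and 3, against 56.6, 55.2 and 62.2 CPM in saline replicates 1, 2 and 3. Each cerulein library was below each saline library, yet the log2 fold change of -0.33 ± 0.14 did not pass (SE, adjusted p = 0.0635, edgeR). Nono was called lower with upper-quartile factors (-0.52) and without saline replicate 1 (-0.38), while with library size alone the value was 0.24.

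Pspc1 encodes paraspeckle component 1 and lies on chromosome 14, 56722441 to 56778318. It was the least abundant measured gene of the set, with 53, 40 and 64 counts in cerulein libraries and 72, 31 and 25 counts in saline libraries. It had 6.27, 4.68 and 8.08 CPM in cerulein replicates 1, 2 and 3, against 9.75, 6.98 and 6.43 CPM in saline replicates 1, 2 and 3. The groups overlapped. The log2 fold change was -0.31 ± 0.28 (SE, adjusted p = 0.376, edgeR), with a 95% interval from -0.92 to 0.30.

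With TMM scaling, the DBHS genes did not share a direction in their point values, though Nono and Pspc1 did not pass. With library size alone the values were all positive, at 1.27 for Sfpq, 0.24 for Nono and 0.24 for Pspc1. The count ratio of Sfpq to Nono was therefore compared directly, a ratio chosen after the values were seen. It was 4.44, 4.16 and 5.54 in cerulein replicates 1, 2 and 3, against 2.63, 2.22 and 1.99 in saline replicates 1, 2 and 3, with no overlap. The log2 ratio averaged 2.22 ± 0.22 in cerulein and 1.18 ± 0.20 in saline (SD, n = 3 each), a difference of 1.04 (p = 0.1 in the same exact permutation test). Neat1 was also set against the summed counts of Sfpq, Nono and Pspc1. That ratio was 14.1, 16.2 and 12.4 in cerulein replicates 1, 2 and 3, against 3.69, 5.32 and 4.11 in saline replicates 1, 2 and 3. On the log2 scale it averaged 3.83 ± 0.19 in cerulein and 2.11 ± 0.27 in saline (SD, n = 3 each), a difference of 1.71 (p = 0.1 in the same exact permutation test). Neat1 RNA thus gained on the combined DBHS mRNAs in every cerulein library. Most of that sum was Sfpq, with 1730 counts in cerulein replicate 1 beside 390 for Nono and 53 for Pspc1. With the mean of the log2 counts of these genes in place of the sum, the difference was 2.13 (p = 0.1 in the same exact permutation test). The adjusted p was 0.1 by that test for each of the ratios of Neat1 to Malat1, Neat1 to the summed counts and Sfpq to Nono.

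**Figure D2:**
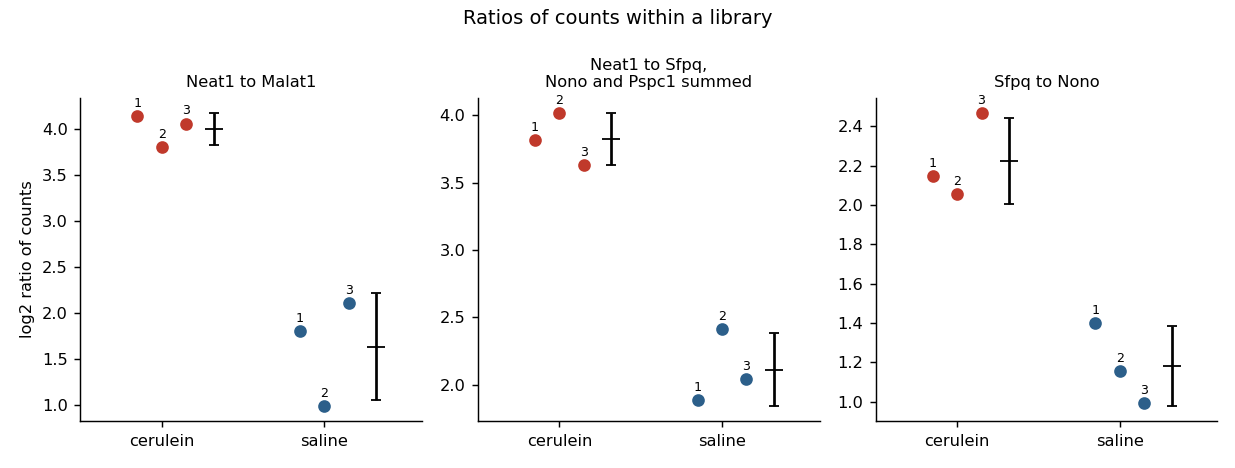
Log2 ratios of raw counts within each library, which do not depend on scaling; numbers are replicate numbers and black bars the mean ± SD of 3 libraries, and the axes do not start at 0. Each ratio is higher in all 3 cerulein libraries than in any saline library, with differences of 2.37, 1.71 and 1.04 from left to right.

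Tardbp lies on chromosome 4, 148612382 to 148627084. It had 217, 255 and 236 CPM in cerulein replicates 1, 2 and 3, against 68.9, 94.8 and 66.1 CPM in saline replicates 1, 2 and 3. The lowest cerulein library was above the highest saline library by more than the range of either group. Tardbp averaged 236 ± 19.01 CPM in cerulein and 76.6 ± 15.8 CPM in saline (SD, n = 3 each), a log2 fold change of 1.62 ± 0.18 (SE, adjusted p = 7.93e-06, edgeR). It lay above 90.4% of tested genes in log2 fold change. Its span partly overlaps Masp2, which had 21 to 42 counts in cerulein and 26 to 33 in saline libraries.

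Cpsf6 and Hnrnpk, which are known for opposite effects on the choice between the forms of Neat1, did not pass the threshold. Cpsf6, on chromosome 10, 117344667 to 117376998, had 43.3, 47.2 and 52.4 CPM in cerulein replicates 1, 2 and 3, against 41.7, 43.5 and 28.3 CPM in saline replicates 1, 2 and 3. Only saline replicate 3 stood well below the rest, and the groups overlapped. The log2 fold change was 0.32 ± 0.18 (SE, adjusted p = 0.139, edgeR), with a 95% interval from -0.06 to 0.71.

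Hnrnpk, on chromosome 13, 58391132 to 58403343, had 116, 145 and 128 CPM in cerulein replicates 1, 2 and 3, against 100.1, 118 and 95.4 CPM in saline replicates 1, 2 and 3. The groups overlapped by a narrow margin, with a log2 fold change of 0.31 ± 0.16 (SE, adjusted p = 0.111, edgeR) and a 95% interval from -0.03 to 0.66. Hnrnpk was called higher without saline replicate 2 (0.41), and both genes were called with library size alone (0.88 for Cpsf6 and 0.89 for Hnrnpk). The span of Hnrnpk partly overlaps Rmi1, which had 82 to 140 counts in cerulein and 55 to 70 in saline libraries.

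Rbm14, on chromosome 19, 4800566 to 4811634, was at 0 in all 6 libraries. It lies wholly inside the span of Gm21992, a read-through gene that joins Rbm14 with Rbm4, and Rbm4 was at 0 as well. Reads that fall in a stretch shared by overlapping genes can be left uncounted, so the value was taken as no measurement of Rbm14. Gm21992 itself had 46, 18 and 28 counts in cerulein libraries, against 70, 47 and 27 in saline libraries.

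**Figure D3:**
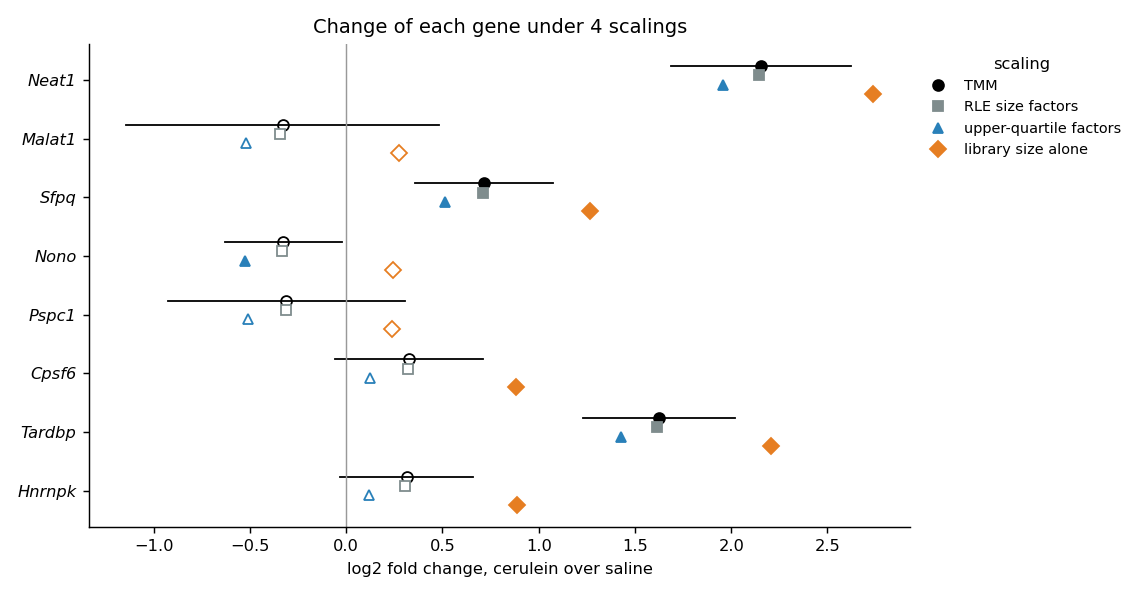
Log2 fold change of cerulein over saline for the 8 measured genes under 4 scalings of library size; filled symbols passed an adjusted p under 0.05, and horizontal lines are 95% intervals of the TMM fit. Neat1, Tardbp and Sfpq are filled and above 0 under each scaling shown, whereas Malat1, Nono and Pspc1 change side with library size alone.

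Levels were compared between genes as CPM per kb of annotated exons, with the exons of all transcripts of a gene joined. That length can exceed the length of the transcripts present, so the order of the genes depends on the annotation. In cerulein, Neat1 stood at 184 CPM per kb, followed by Sfpq at 45.6, Malat1 at 34.5, Tardbp at 30.2, Hnrnpk at 20.1, Nono at 10.6, Cpsf6 at 4.53 and Pspc1 at 1.11. Malat1 and Tardbp overlapped over libraries, Sfpq and Malat1 nearly touched, with a lowest value of 42.75 for Sfpq and a highest of 42.74 CPM per kb for Malat1, and the other neighbours did not overlap. In saline, Malat1 stood at 43.4 and Neat1 at 41.2 CPM per kb, followed by Sfpq at 27.8, Hnrnpk at 16.1, Nono at 13.3, Tardbp at 9.83, Cpsf6 at 3.599 and Pspc1 at 1.35. Malat1, from 26.2 to 71.3 CPM per kb over saline libraries, overlapped both Neat1 and Sfpq, and no other neighbours in that order overlapped. Per length, Neat1 was thus far above Malat1 in cerulein libraries and within the range of Malat1 in saline libraries. The length used for Neat1 is that of the long form, and reads from the short form alone would give a higher level per kb. Poly(A) selection captures ends without a tail poorly, so the levels of Neat1 and Malat1 are those of RNA that this selection kept.

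By distance over the 6 libraries in centred log2 CPM, the 5 of 11389 named genes nearest to Neat1 were Ubap1, Cfl1, Dtx2, Cstb and Kctd3. Ubap1 encodes a subunit of the ESCRT-I sorting complex, Cfl1 the actin-severing protein cofilin, Dtx2 a ubiquitin ligase and Cstb the protease inhibitor cystatin B. Ubap1, the nearest at a distance of 0.11, had 78.0, 88.3 and 79.8 CPM in cerulein, against 17.7, 20.5 and 15.9 CPM in saline. Their log2 fold changes ran from 2.11 for Kctd3 to 2.28 for Cstb. Nearest to Malat1 were Trappc1, Dnaaf2, Snrpa, Cnbd2 and Cyb5d2, at distances of 0.38 to 0.51. Snrpa encodes a protein of the U1 splicing particle. Like Malat1, each of the 5 was highest in saline replicate 2, and Snrpa had 11.5, 15.3 and 12.4 CPM in cerulein against 10.4, 22.3 and 12.1 CPM in saline replicates 1, 2 and 3. None of these 5 was called by edgeR. The genes near Neat1 and near Malat1 were chosen for likeness over these same libraries. Their shared pattern, sizes of change and calls thus follow from that choice.

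The genes within 100 kb of Neat1 and Malat1 were chosen by position after the values were seen. Of 11 tested genes described there, Neat1 and Malat1 included, 6 were called higher, 2 lower and 3 not called, beside 28.7% higher and 27.1% lower of all tested genes. Neat1 is 1 of the 6, and its rise was known before the window was chosen. Any gene of the window that is not reported here is outside this count. Frmd8, the gene just upstream of Neat1 on the same strand, had 32.4, 36.5 and 36.4 CPM in cerulein replicates 1, 2 and 3, against 11.4, 5.86 and 7.20 CPM in saline replicates 1, 2 and 3. It rose by 2.06 ± 0.23 on the log2 scale (SE, adjusted p = 6.21e-06, edgeR). Cdc42ep2, a CDC42 effector gene farther upstream, rose by 2.03 ± 0.29, with 9.27 ± 0.95 CPM in cerulein and 2.19 ± 0.47 CPM in saline (SD, n = 3 each). Between them, Slc25a45, a mitochondrial carrier gene, fell by 1.05 ± 0.31, a call lost without saline replicate 3 or with library size alone. On the other side, past Malat1, Map3k11, a kinase of the MAP kinase cascades, rose by 1.33 ± 0.15 (SE, adjusted p = 9.28e-06, edgeR) and Ehbp1l1 by 1.37 ± 0.23 (SE, adjusted p = 0.000245, edgeR). Both were called higher under all 14 alternatives. Nearer to Malat1, Ltbp3 was called lower at -0.41 ± 0.14, a call lost with no count filter, with any 1 cerulein replicate left out and with library size alone, where the value was 0.16. Fam89b was called higher at 0.58 ± 0.18, a call that ended with upper-quartile factors and without saline replicate 1 or cerulein replicate 2.

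**Figure D4:**
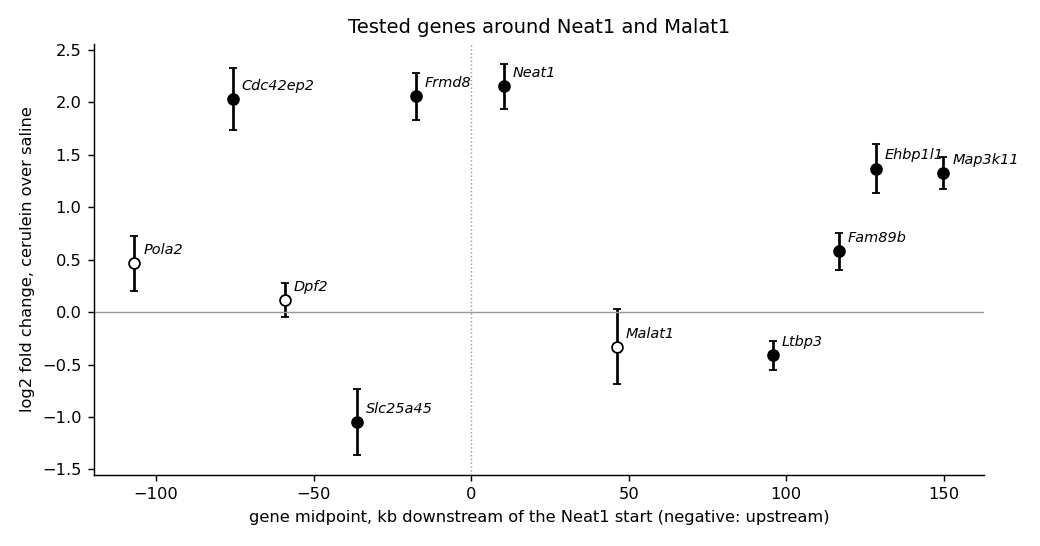
Log2 fold change of cerulein over saline against the distance of each gene's midpoint from the Neat1 start, in kb along the direction of Neat1 transcription; bars are standard errors and filled points passed an adjusted p under 0.05. Neat1 at 2.16 lies between Frmd8 at 2.06 and Malat1 at -0.33, and Slc25a45 at -1.05 lies between Frmd8 at 2.06, which rose, and Dpf2 at 0.12, which was not called.

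Beyond the 9 genes, 28 further paraspeckle proteins were listed and 27 tested. Of these, 3 rose, 12 fell and 12 did not pass, with a median log2 fold change of -0.36, beside 0.00 for all tested genes and the 28.7% higher and 27.1% lower given above. With library size alone 7 were higher and 4 lower, and 6 were higher without saline replicate 1. Cirbp, a cold-induced RNA-binding protein, fell by 2.17 ± 0.22 on the log2 scale (SE, adjusted p = 3.05e-06, edgeR), with 9.12 ± 2.78 CPM in cerulein and 41.3 ± 3.82 CPM in saline (SD, n = 3 each). Rbmx, a splicing regulator, fell by 1.58 ± 0.19, Akap8l, a nuclear anchoring protein, by 1.46 ± 0.17, and Fam98a by 1.16 ± 0.16. The genes that rose were Rbm3 at 1.30 ± 0.19, also a cold-induced protein, Hnrnpf at 1.09 ± 0.16 and Hnrnpm at 0.41 ± 0.15, which were chosen once values had been seen. The call of Hnrnpm was lost with upper-quartile factors, with DESeq2 and when any 1 library other than saline replicate 1 was left out. Taf15, an RNA-binding protein, had a log2 fold change of 0.60 ± 0.33 and did not pass, but passed without saline replicate 1, at 1.096, and with no count filter, at 0.67. Ewsr1 was called lower at -0.52 ± 0.21 (adjusted p = 0.0464, edgeR), a call lost without saline replicate 1 (-0.24) or any 1 cerulein replicate, with limma-voom, with a filter of CPM above 1 in 3 libraries and with library size alone (-0.0072). Taf15 and Ewsr1 were also named after their values were seen. Rbm12, inside Cpne1, was at 0.

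Malat1 resides in nuclear speckles. Of 24 tested speckle and splicing genes, 6 rose, 9 fell and 9 did not pass, with a median log2 fold change of -0.12. These are 25.0% higher and 37.5% lower, beside 28.7% and 27.1% of all tested genes. With library size alone 10 were higher and 2 lower. Rnps1, a subunit of the exon junction complex, rose by 1.54 ± 0.17, with 52.9, 67.4 and 54.4 CPM in cerulein replicates 1, 2 and 3 against 19.8, 17.3 and 22.9 CPM in saline replicates 1, 2 and 3. Tra2b, a splicing activator, rose by 0.91 ± 0.17. Srsf6, a splicing factor of the SR family, fell by 1.24 ± 0.17, and Clk4, a kinase that acts on SR proteins, by 1.25 ± 0.17 on the log2 scale (SE, adjusted p = 3.70e-05 for Srsf6 and 4.13e-05 for Clk4, edgeR).

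Of 16 tested cleavage and polyadenylation genes, 3 rose, 2 fell and 11 did not pass, with a median of 0.28. These are 18.8% higher and 12.5% lower, beside 28.7% and 27.1% of all tested genes. The number higher was 10 with library size alone, and 1 with upper-quartile factors or without saline replicate 3. Cpsf2 rose by 1.02 ± 0.16 and Cpsf3, the cutting subunit, fell by 1.41 ± 0.19 on the log2 scale (SE, adjusted p = 0.000159 for Cpsf2 and 3.26e-05 for Cpsf3, edgeR). Wdr33, which reads the polyadenylation signal, fell by 0.67 ± 0.17, a call lost with library size alone, and Cstf1 rose by 0.57 ± 0.17, a call lost with upper-quartile factors or without saline replicate 3. Nudt21 and Cpsf7, the partners of Cpsf6 in cleavage factor I, had log2 fold changes of 0.07 ± 0.38 and -0.39 ± 0.32 and did not pass; they were named after their values were seen.

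RNase P cuts mascRNA off the end of Malat1. Of 9 tested genes of RNase P and RNase Z, 2 rose, 1 fell and 6 did not pass, with a median of 0.01. These are 22.2% higher and 11.1% lower, beside 28.7% and 27.1% of all tested genes. Pop1, a scaffold protein of RNase P, rose by 2.07 ± 0.33, with 11.3 ± 2.33 CPM in cerulein and 2.74 ± 1.33 CPM in saline (SD, n = 3 each; adjusted p = 0.000161, edgeR). Pop7 rose by 1.29 ± 0.37, a call lost without cerulein replicate 2, while Pop5 fell by 0.82 ± 0.27, a call lost with library size alone and when saline replicate 3 or either of cerulein replicates 1 and 3 was left out. Rpp40, at -0.93 ± 0.41, did not pass. Elac2, which encodes RNase Z, had a log2 fold change of -0.17 ± 0.22 and did not pass, and was named after its value was seen.

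Among 10 other named nuclear lncRNAs, 6 were tested and 2 of them fell, or 33.3%, which is near the 27.1% of all tested genes called lower. Firre, an X-linked RNA that organises chromatin, had 32.1 ± 3.94 CPM in cerulein and 83.8 ± 2.64 CPM in saline (SD, n = 3 each), a log2 fold change of -1.39 ± 0.15 (SE, adjusted p = 4.97e-06, edgeR). Meg3, an imprinted lncRNA, fell by 1.001 ± 0.185, a call lost with library size alone. Pvt1, beside Myc, was at 1.03 ± 0.49 and Dleu2 at -0.48 ± 0.20, and neither passed. None of the 6 was called higher by edgeR at an adjusted or unadjusted p under 0.05, nor by DESeq2, and 1 was by limma-voom. Pvt1 was called higher without saline replicate 1, at 1.74.

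**Figure D5:**
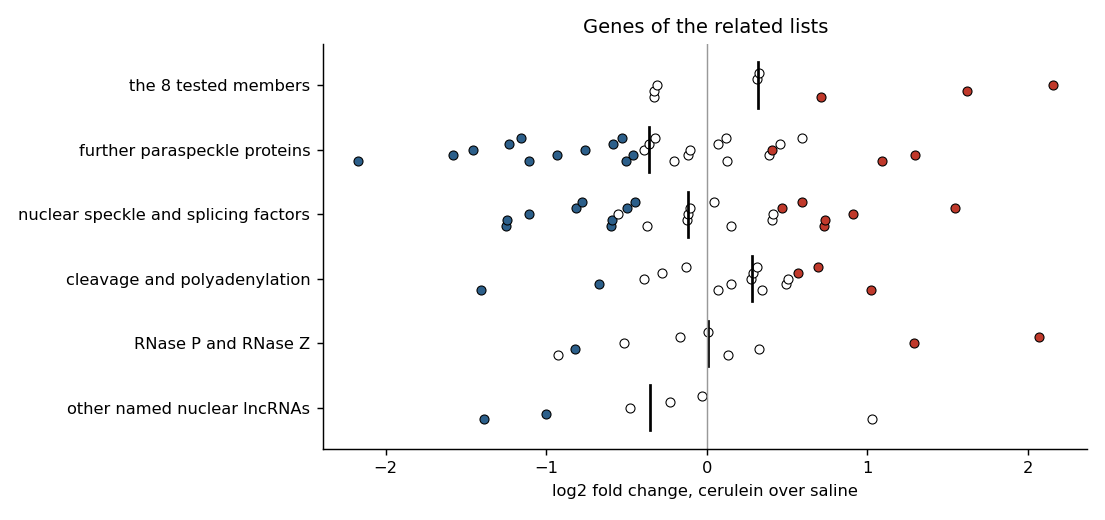
Log2 fold change of cerulein over saline for each tested gene of the 8 members and 5 related lists, with vertical bars at the median; red points were called higher, blue points lower and white points not called, and height within a row only separates points. Neat1 at 2.16 and Tardbp at 1.62 are the 2 rightmost members, and the further paraspeckle proteins reach from -2.17 to 1.30.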

How the data were processed

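The deposited table holds raw counts of reads per gene for 6 pancreas libraries. Per the labels' protocols, RNA came from TRIzol extraction and libraries from a stranded, poly(A)-selecting TruSeq kit. Trimmomatic, STAR, HTSeq and mm10 are named in the submitters' processing notes, without versions, strand setting or annotation. Reads of overlapping genes or of processed copies of a gene may therefore be lost or misassigned.

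Counts were tested unchanged with edgeR 4.0.16 in R 4.3.3 across all genes, with filterByExpr (minimum count 10, minimum total 15), TMM factors, robust quasi-likelihood dispersion, a two-sided test and Benjamini-Hochberg adjustment, after a check on simulated data. TMM factors were 1.30, 1.13 and 1.26 in cerulein and 1.03, 0.719 and 0.731 in saline libraries. Standard errors come from the F statistics, and 95% intervals from the same fit. Alternatives used other scalings and filters, limma-voom (limma 3.58.1), DESeq2 1.42.0, a replicate block and each library left out. Genes were placed by symbol in RefSeq GRCm38.p6, and exon lengths and transcripts are from GENCODE M21. All 9 genes, up to 4 genes of smallest p per list, and the 5 genes nearest to Neat1 and to Malat1 (average log2 CPM of at least 1) are named. Other genes named are marked as chosen after their values were seen. The members and lists were chosen with earlier results of these data known. Some genes are not reported here.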

Additional observations from a re-analysis of the deposited data

How the results depend on the processing

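Neat1, Tardbp and Sfpq were called higher under all 14 alternatives, with log2 fold changes of 1.96 to 2.74, 1.43 to 2.21 and 0.51 to 1.27. With library size alone, Malat1 was at 0.28, Nono at 0.24, Pspc1 at 0.24, Ltbp3 at 0.16, Dleu2 at 0.12, Trappc1 at 0.37, Dnaaf2 at 0.44, Snrpa at 0.42, Cnbd2 at 0.43, Cyb5d2 at 0.11, Cpsf7 at 0.15 and Elac2 at 0.42, each above 0 in place of below. Cpsf6 (0.88) and Hnrnpk (0.89) were then called. That setting called 5 members higher and, over all genes, 1449 lower in place of 3373. It gave 7 further paraspeckle proteins, 10 speckle genes, 10 cleavage genes and 1 nuclear lncRNA higher, and 4, 2, 1 and 1 lower, with 0 of RNase P and RNase Z lower. With upper-quartile factors Nono was called lower (-0.52), the only member (1), Dpf2 was at -0.077, Nudt21 at -0.12, 1 cleavage gene was higher and 3 genes of RNase P and RNase Z were lower. Without a count filter 6 further paraspeckle proteins and 1 nuclear lncRNA were higher, and limma-voom gave 1 nuclear lncRNA higher and Dnaaf2 at 0.013. The cause of these shifts was not tested.

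Leaving out 1 library at a time gave ranges of -0.62 to 0.23 for Malat1, -0.38 to -0.28 for Nono and 0.24 to 0.41 for Hnrnpk. The members called lower numbered 0 to 1, further paraspeckle proteins higher 2 to 6, cleavage genes higher 1 to 4, genes of RNase P and RNase Z 1 to 2 higher and 0 to 1 lower, and nuclear lncRNAs higher 0 to 1. It gave -0.51 to 0.18 for Trappc1, -0.50 to 0.41 for Dnaaf2, -0.44 to 0.23 for Snrpa, -0.26 to 0.27 for Nudt21 and -0.47 to 0.29 for Cnbd2. The log2 ratios had ranges of 2.05 to 2.61 for Neat1 to Malat1, 1.6 to 1.87 for Neat1 to the DBHS genes and 0.92 to 1.15 for Sfpq to Nono.

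The replicate numbers were not taken as pairs. Same-numbered libraries deviated together with r = 0.19 and 0.22 for numbers 1 and 2 and -0.15 for number 3, and cerulein replicate 3 correlated best with saline replicate 1. With the number as a block, 3673 genes were higher and 3401 lower, with the same 3 members, and 5 further paraspeckle proteins were higher, Taf15 (0.72) among them. The log2 ratios kept their values, with p = 0.25 by exact sign permutation, the smallest 3 pairs allow. Pspc1, Nudt21 and the subunits of RNase P rest on few reads.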
